A study of Mus musculus with 15 samples.

Results

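Matrix metalloproteinases (MMPs), ADAMTS proteases and the tissue inhibitors of metalloproteinases (TIMPs) were examined in mouse brain tumours. The members are the 46 genes, of 24421 in the deposited tables, whose symbols are Mmp, Adamts or Timp followed by a number: 23 Mmp, 19 Adamts and 4 Timp genes. The rule reads symbols only.

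MMPs are zinc-dependent endopeptidases, secreted or held at the cell surface, that are made as inactive precursors and cleave collagens, other matrix proteins and cell-surface proteins once the propeptide is removed. ADAMTS enzymes are secreted relatives with thrombospondin repeats. Many of them process procollagens, fibrillin-rich microfibrils or the hyalectans, the aggrecan family of proteoglycans that fills much of the brain's extracellular space. TIMPs bind the active site of these enzymes and block it. In brain tumours this system is known for matrix turnover at the invading edge and around vessels.

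The samples are pieces of tumour tissue from 2 models, EPN (ependymoma) and HGG (high-grade glioma), profiled by stranded poly(A) RNA sequencing. The 15 libraries fall into 5 genotype groups of 3: EPN Sox9-GOF (gain of function), EPN control, HGG Sox9-LOF (loss of function), HGG Sox9-GOF and HGG control. The labels give no strain, age, driver gene or way of changing Sox9, and they do not say whether the libraries of a group came from separate animals, so p-values measure the spread between these libraries, which may be technical. The series asks by its title how Sox9, a transcription factor that specifies glia and chondrocytes, acts in different tumour subtypes.

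Reads assigned to genes ranged over the libraries between 4665428 and 14119140, with a median of 10578708. Normalized counts here are reads scaled for library size over all 15 libraries together. TPM, reads per length of exon scaled to 1 total in every library, is used to compare genes with each other. Sox9 had 2055, 1834 and 2692 normalized counts in EPN Sox9-GOF, against 1045, 1040.2 and 1189 in EPN control, and 1275, 1537 and 1391 in HGG Sox9-GOF, against 218, 285 and 310.3 in HGG control. The libraries labelled Sox9-LOF had 739, 579 and 395, all above the 3 HGG controls, so Sox9 mRNA goes against that label and no direction of Sox9 function is read from it. Choroid plexus markers summed to 28568 TPM in HGG control 1, to 7324 in the library labelled Sox9-LOF 3 and to 3058 in HGG Sox9-GOF 3, against at most 216 in the other 12 libraries.

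Together the 46 members were led by the inhibitors. Timp2, Timp1 and Timp3 had the highest mean TPM over the 15 libraries (283, 177 and 167), followed by the membrane-anchored Mmp15 and Mmp14 (101 and 90.9), Adamts1 (52.9), Mmp23 (51.1), Mmp2 (42.2) and Adamts2 (34.9). The order differed between the models in these means. Timp1 stood first in EPN Sox9-GOF and EPN control (246 ± 44.0 and 248 ± 41.1 TPM, SD, n = 3 each), and Timp2 in all 3 HGG groups, with 302 ± 49.4 TPM in the libraries labelled Sox9-LOF, 431 ± 137 TPM in HGG Sox9-GOF and 392 ± 217 TPM in HGG control (SD, n = 3 each). Timp3 was within the SD of Timp1 in both EPN groups, with 222 ± 118 TPM in EPN Sox9-GOF and 245 ± 26.7 TPM in EPN control. In the libraries labelled Sox9-LOF, Timp1 had 248 ± 203 TPM. Mmp23 ranked 4 and 5 of 46 in the EPN groups but between 26 and 35 in the HGG groups.

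The 19 Adamts genes together made 369, 286 and 319 TPM in EPN Sox9-GOF and 376, 361 and 242 TPM in EPN control. They made 122, 131 and 140 TPM in the libraries labelled Sox9-LOF, 71.0, 105 and 112 TPM in HGG Sox9-GOF and 137, 150 and 78.5 TPM in HGG control. Every EPN library was thus above every HGG library. The 23 Mmp genes together overlapped between the models because HGG control 2 reached 677 TPM, of which Mmp15 alone made 459, and the 4 Timp genes together lay between 409 and 975 TPM. Among the Timp sums, EPN Sox9-GOF (494, 563 and 650 TPM) and EPN control (700, 738 and 666 TPM) were the only 2 groups that did not overlap.

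**Figure D1:**
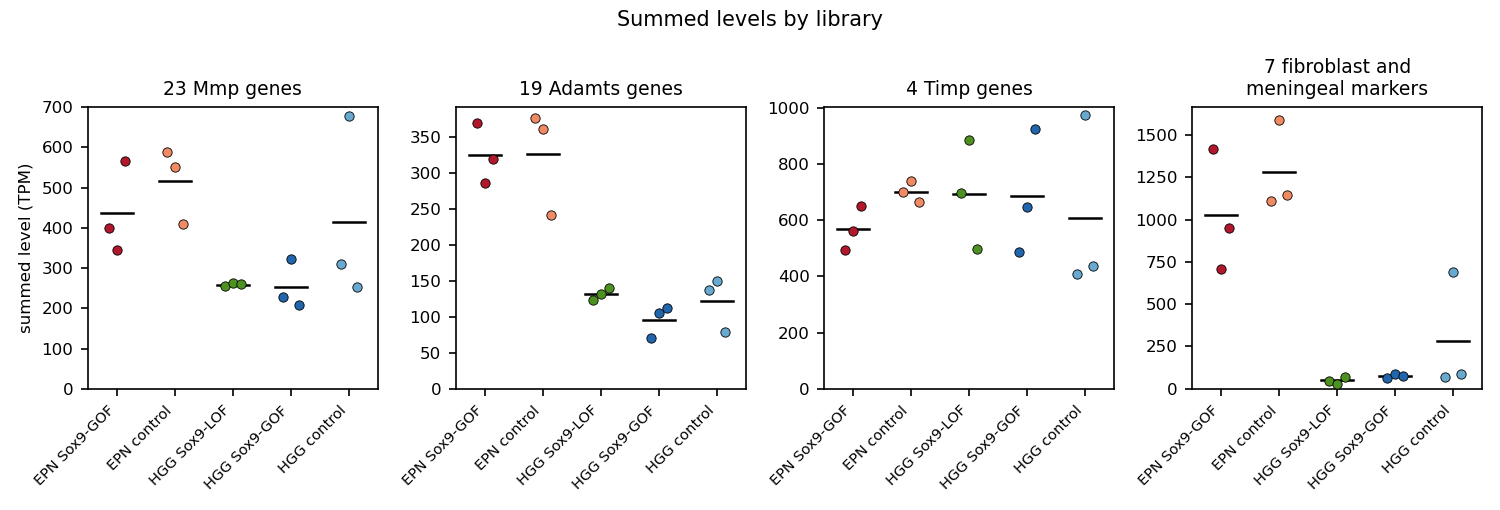
Summed TPM of the 23 Mmp, 19 Adamts and 4 Timp genes and of 7 fibroblast and meningeal marker genes in each of the 15 libraries (points), with group means (bars). The Adamts sum and the fibroblast sum were higher in all 6 EPN libraries than in all 9 HGG libraries.

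Of the 46 members, 36 had a mean of at least 10 normalized counts in at least 1 comparison and could be tested, 35 in each comparison and 36 in HGG Sox9-GOF against HGG control. Adamts13 was added there through its level in HGG Sox9-GOF alone. Mmp23 and Mmp13 passed in that comparison through HGG control alone. Their means were 20.8 and 31.9 normalized counts in HGG control, against 4.17 and 5.88 in HGG Sox9-GOF. The 10 that could not were Adamts18, Adamts19, Mmp1a, Mmp1b, Mmp7, Mmp8, Mmp10, Mmp20, Mmp21 and Mmp27. Mmp7 (matrilysin) and Mmp1b had 0 reads in all 15 libraries, which allows up to 0.0195 CPM, counts scaled to the library total (3 reads over all libraries, counting error only).

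Low level went with position among the MMPs. On mouse chromosome 9, at chr9:7272514-7699585 (GRCm38), 10 Mmp genes stand side by side: Mmp13, Mmp12, Mmp1b, Mmp3, Mmp1a, Mmp10, Mmp8, Mmp27, Mmp20 and Mmp7. Only 3 of these 10, Mmp3, Mmp12 and Mmp13, could be tested, against 12 of the 13 Mmp genes elsewhere. The median over genes of the mean level was 0.356 TPM in the cluster and 8.48 TPM outside it. Cluster genes include the collagenases, the stromelysins Mmp3 and Mmp10 and the macrophage elastase Mmp12, which are known in many tissues as inducible genes.

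The bases just before the start sites were searched for motifs of known factors. The AP-1 motif was searched as TGANTCA, a loose form of the site of Fos and Jun dimers with any base (N) at the centre. This pattern reads the same on both strands. It was searched in the 250 bases before the start of each gene in the RefSeq promoter set (GRCm38.p6), in which 32 of the 46 members had a promoter. It stood in 7 of the 10 cluster promoters (Mmp1a, Mmp1b, Mmp3, Mmp7, Mmp10, Mmp13 and Mmp20) and in 0 of the other 22 members' promoters, against 6.85% of all 27025 promoters. The central base was A in Mmp20 and C or G in the other cluster matches. The 100 bases before the start are shown for 4 cluster genes with the motif and for Mmp23, the most model-dependent Mmp gene, without it. Capitals mark the AP-1 motif, and each sequence runs 5′ to 3′ on the strand of its gene.
Mmp13, chr9:7272414-7272513, plus strand: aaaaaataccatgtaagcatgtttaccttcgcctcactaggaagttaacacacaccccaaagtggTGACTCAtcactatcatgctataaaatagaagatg
Mmp3, chr9:7445722-7445821, plus strand: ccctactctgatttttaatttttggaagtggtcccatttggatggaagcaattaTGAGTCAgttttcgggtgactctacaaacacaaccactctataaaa
Mmp10, chr9:7502242-7502341, plus strand: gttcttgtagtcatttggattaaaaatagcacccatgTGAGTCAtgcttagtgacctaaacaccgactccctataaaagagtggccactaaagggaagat
Mmp1a, chr9:7464041-7464140, plus strand: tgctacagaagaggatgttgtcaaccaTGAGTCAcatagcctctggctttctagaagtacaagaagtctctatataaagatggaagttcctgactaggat
Mmp23, chr4:155653385-155653484, minus strand: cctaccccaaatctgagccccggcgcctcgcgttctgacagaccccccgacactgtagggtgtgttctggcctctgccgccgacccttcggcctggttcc

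The motif began 35 bases before the start in Mmp13, 46 in Mmp3, 63 in Mmp10 and 73 in Mmp1a. A SOX motif, AACAAT on either strand, was found before Mmp7, Mmp25 and Timp1, 3 of the 32 member promoters, against 9.62% of all promoters. An NF-kB motif, GGGNNTTCC on either strand, was found in 0 of 32, against 4.85% of all promoters. A match is a description of these letters and does not show that a factor binds.

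The largest differences among the members were between the tumour models. In EPN control against HGG control, 9 of the 35 tested members were called (limma, adjusted p under 0.05, adjusted over 15105 genes), which is 25.7% of them against 15.3% of all genes tested. Adamts15, Adamts2, Mmp23, Adamts1, Adamts12, Mmp14 and Timp1 were higher and Adamts20 and Adamts6 lower in EPN control. At an unadjusted p under 0.05 there were 17 members (12 higher, 5 lower), 48.6% against 33.3% of all genes, and the median log2 fold change over the tested members was 1.06, against 0.00 over all genes. Over all genes 2777 were higher and 2255 lower at that threshold.

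Among the 7 hyalectan-cleaving ADAMTS genes, 3 were called. Adamts15, an aggrecan- and versican-cleaving enzyme (ENSMUSG00000033453.8, chr9:30899155-30922452), had 1238, 914 and 742 normalized counts in EPN control, against 24.6, 28.7 and 38.3 in HGG control. It was 30.4-fold higher in EPN control (log2 fold change 4.93, SE 0.29, limma adjusted p = 0.000997), and the lowest EPN control library was far above the highest HGG control.
Adamts1, which cleaves versican and aggrecan, had 1517, 1242 and 935 normalized counts in EPN control, against 542, 496 and 325 in HGG control, with no overlap (log2 fold change 1.44, SE 0.28, limma adjusted p = 0.0210). Adamts20, a versican-cleaving enzyme needed by mouse melanoblasts, went the other way, with 27.5, 32.7 and 20.2 in EPN control and 75.4, 396 and 139.9 in HGG control. It fell by 2.57 on the log2 scale (SE 0.62, limma adjusted p = 0.0403). Their chromosomal neighbours were not called. Adamts8 lies 20110 bases from Adamts15 and Adamts5 lies 53060 bases from Adamts1, with log2 fold changes of 1.53 (SE 0.61, limma adjusted p = 0.137) for Adamts8 and 1.39 (SE 0.89, limma adjusted p = 0.324) for Adamts5.

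Of the 3 procollagen N-proteinases, which remove the amino-terminal propeptide of fibrillar procollagens, Adamts2 was called. Adamts2 (ENSMUSG00000036545.8, chr11:50602084-50807573) had 2738, 3253 and 1560.4 normalized counts in EPN control, against 31.0, 100.5 and 67.5 in HGG control, 39.7-fold higher in EPN control (log2 fold change 5.31, SE 0.48, limma adjusted p = 0.00371). It had the largest fold change of the 35 tested members here. Adamts12, which cleaves cartilage oligomeric matrix protein, had 85.6, 178 and 90.2 in EPN control and 8.73, 30.8 and 4.26 in HGG control (log2 fold change 3.25, SE 0.73, limma adjusted p = 0.0322). Its relative Adamts7 was not called, and its 3 HGG control libraries alone spanned 157, 410.0 and 27.7 normalized counts.

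Mmp23 (ENSMUSG00000029061.2, chr4:155650655-155653384) encodes a small MMP without the hemopexin domain of most MMPs, anchored by its amino terminus and released by proprotein cleavage. It had 326, 1347 and 579 normalized counts in EPN control and 23, 24.6 and 14.9 in HGG control, with no overlap. It was 29.7-fold higher in EPN control (log2 fold change 4.89, SE 0.54, limma adjusted p = 0.00521). Mmp14, the membrane-type MMP known for activating pro-Mmp2, had 3668, 3362 and 2214 in EPN control, against 1168, 1712 and 854 in HGG control (log2 fold change 1.33, SE 0.32, limma adjusted p = 0.0397).
Of the other transmembrane MMPs, Mmp15 had 658, 541 and 821 normalized counts in EPN control and 1966, 7003 and 1111 in HGG control, and its log2 fold change of -1.90 was not called (SE 0.65, limma adjusted p = 0.0952). HGG control 2 stood far above the other HGG controls for Mmp15. The gelatinases, which cut denatured and basement membrane collagen, were not called either. Mmp2 ranged widely in EPN control, with 2266, 645 and 359 normalized counts, against 427, 291 and 215 in HGG control (log2 fold change 1.43, SE 0.67, limma adjusted p = 0.190), and Mmp9 had a log2 fold change of 1.60 (SE 0.72, limma adjusted p = 0.174).

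The low collagenase, stromelysin and elastase genes were uneven within HGG control. Mmp12 had 366, 0 and 2.84 normalized counts and Mmp13 had 87.3, 2.05 and 6.39 in HGG controls 1, 2 and 3, so HGG control 1 carried nearly all of both. In EPN control Mmp12 had 64.4, 10.1 and 20.2 and Mmp13 had 24.3, 20.3 and 23.3. Mmp3 (stromelysin) had 93.0, 45.1 and 121 in EPN control and 42.9, 2.05 and 5.68 in HGG control, a log2 fold change of 3.07 that was not called (SE 1.02, limma adjusted p = 0.0890).
The same HGG control 1 was the library with 28568 TPM of choroid plexus markers, and its neutrophil markers summed to 616 TPM, against 30.6 and 132 TPM in HGG controls 2 and 3, with Ngp and Camp at 0 reads in all 3. Their part in the Mmp12 and Mmp13 levels was not tested.

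Among the inhibitors, Timp1, a secreted TIMP that reactive glia induce, had 584, 787 and 613 normalized counts in EPN control, against 276, 45.1 and 134 in HGG control, with no overlap (log2 fold change 2.45, SE 0.62, limma adjusted p = 0.0455). Timp3, the matrix-bound TIMP that also blocks several ADAMTS enzymes, was abundant in both, with 6581, 6381 and 5059 in EPN control and 2336, 6571 and 1213 in HGG control (log2 fold change 1.17, SE 0.58, limma adjusted p = 0.213). Timp2 had a log2 fold change of -0.87 and Timp4 of 0.16, and neither was called (limma adjusted p = 0.146 and 0.887). Timp3 shares 21.3% of its exon bases with Syn3 on the opposite strand, and since the strand setting of the counting is not given in the sources used here, its counts are uncertain.

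Adamts6, the close relative of the fibrillin-binding Adamts10, had 33.8, 24.8 and 24.9 normalized counts in EPN control and 67.5, 59.5 and 90.9 in HGG control (log2 fold change -1.34, SE 0.35, limma adjusted p = 0.0475). Adamts10 itself did not separate the controls, with 433, 412 and 341 in EPN control and 473, 502 and 307 in HGG control (log2 fold change -0.09, SE 0.25, limma adjusted p = 0.830).

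**Figure D2:**
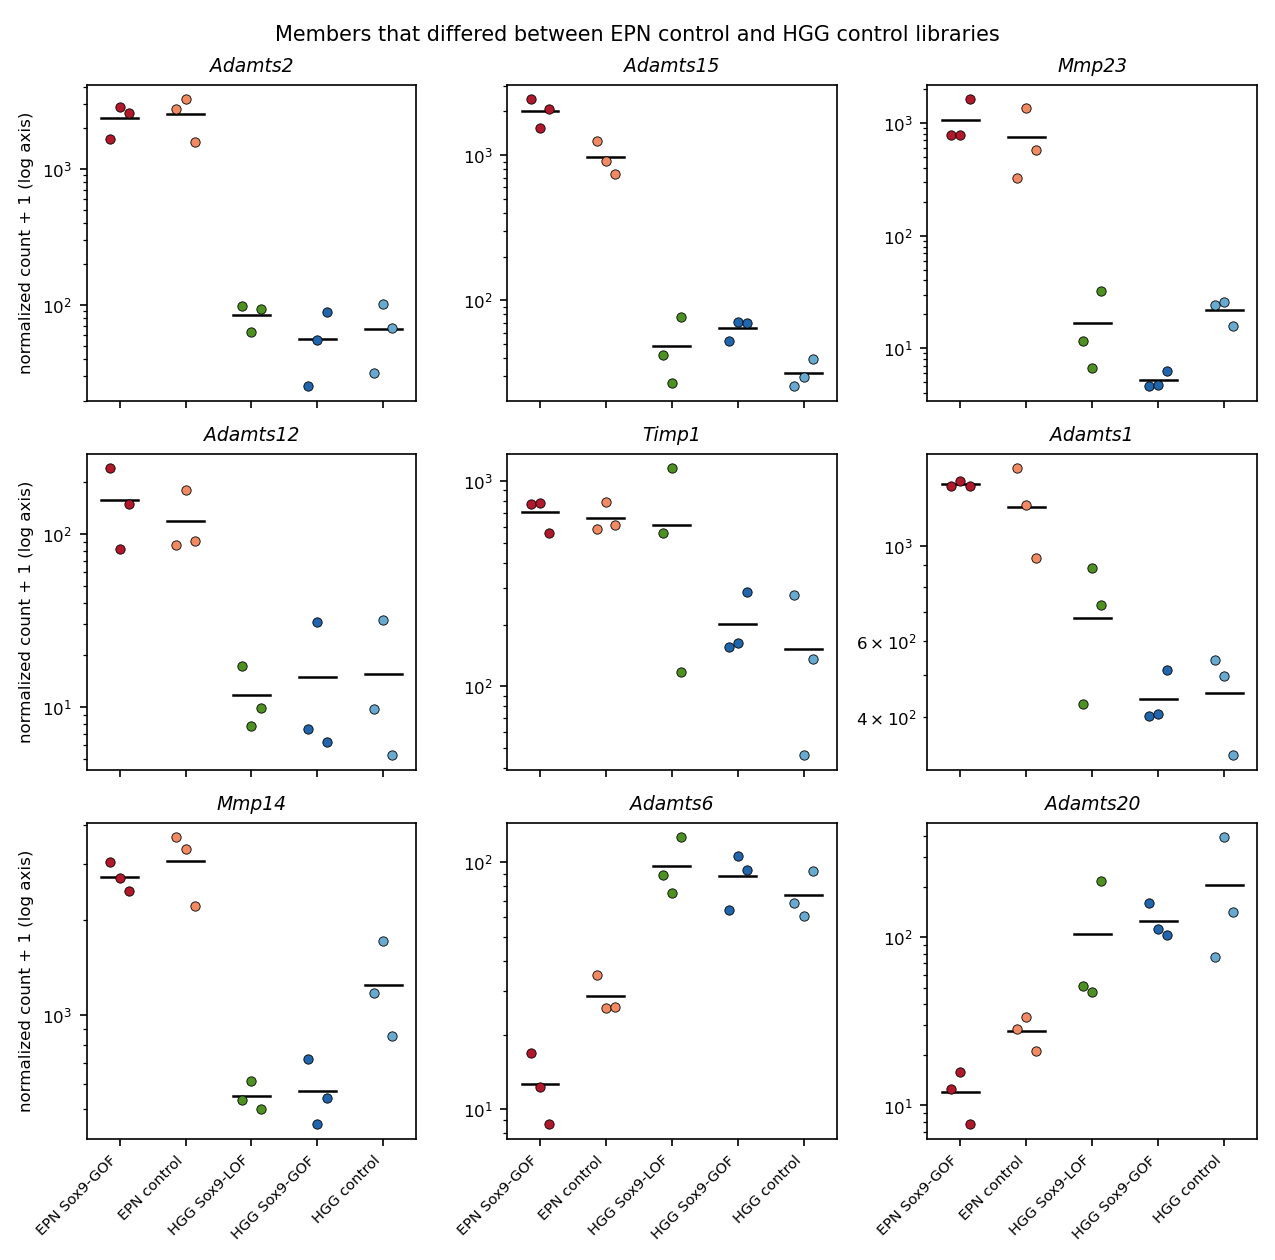
Normalized count + 1 (log axis) of the 9 members called between EPN control and HGG control in each of the 15 libraries, with bars at the arithmetic group means. For Adamts2, Adamts15, Mmp23, Adamts12, Mmp14 and, narrowly, Adamts1 all 6 EPN libraries lie above all 9 HGG libraries. For Adamts6 and Adamts20 all 6 lie below them, and Timp1 overlaps.

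Adamts15, Adamts2 and Mmp23 remained called in each fit that left out 1 of the 6 control libraries, while the count of called members then ranged from 3 (without EPN control 1, or without EPN control 2) to 13 (without HGG control 1). Calls over all genes moved too, with 645 of 15099, 368 of 15124 and 3633 of 15030 in those fits. Fibroblast and meningeal markers moved with this comparison. The 7 markers, all with reads in every group, summed to 1112, 1588 and 1148 TPM in EPN control and to 69.4, 690 and 85.2 TPM in HGG control. HGG control 2 held most of the HGG control sum, and without it 9 members were called, with Timp3 added and Adamts6 lost. Over all genes, 1839 of 15055 were called without that library. Endothelial markers (379 to 508 TPM in EPN control against 93.6 to 328 TPM in HGG control), pericyte markers (325 to 429 TPM against 101 to 205 TPM) and oligodendrocyte precursor markers (472 to 542 TPM against 1327 to 4698 TPM) separated the controls as well. Whether more cells of a type or more RNA per cell gives such a difference cannot be told apart in bulk tissue, and the part of these markers in the results was not tested.

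**Figure D3:**
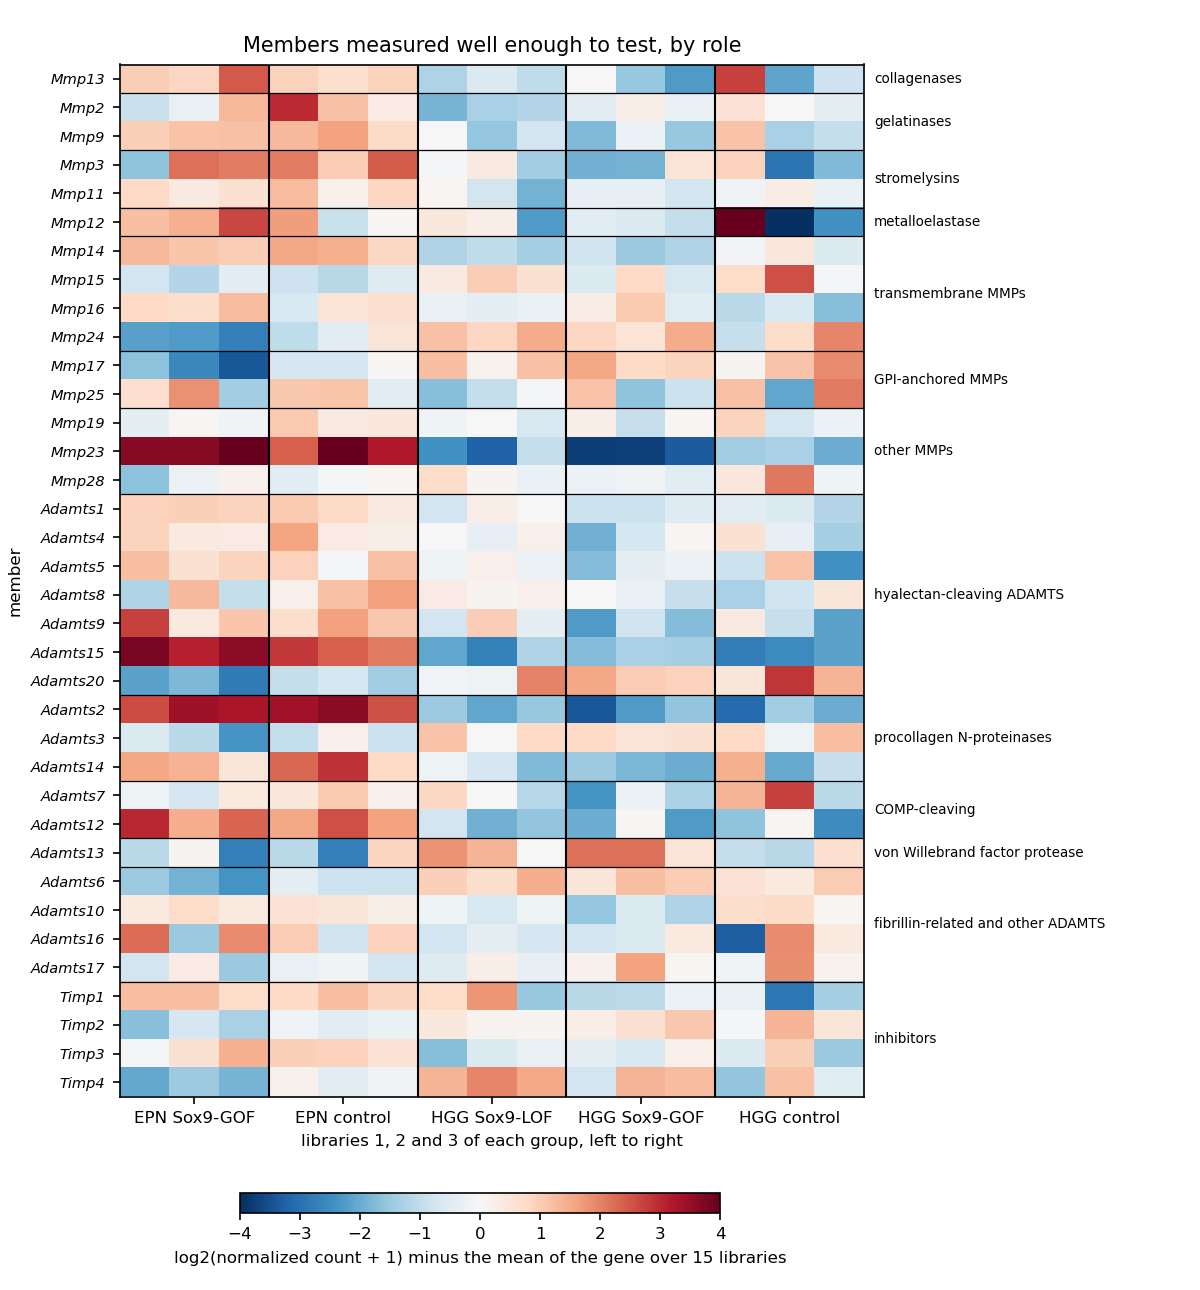
Level of the 36 testable members in the 15 libraries, as log2(normalized count + 1) minus the mean of the gene, grouped by role. The 6 EPN libraries were high for Adamts15, Adamts2, Adamts12 and Mmp23, and HGG control 1 stood apart from the other HGG libraries for Mmp12 and Mmp13.

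In EPN Sox9-GOF against EPN control, 0 of 35 members were called (limma), where 0.0% of 14591 genes were, also 0 members by edgeR. DESeq2 called 4 of 35 (Adamts15, Mmp17, Mmp24 and Timp4), 11.4% against 5.78% of 14574 genes with an adjusted p in that tool. At an unadjusted p under 0.05 there were 8 members, 1 higher and 7 lower, which is 22.9% against 15.1% of all genes. Over all genes the lean was also to lower levels, with 629 higher and 1567 lower at that threshold. The median log2 fold change over the members was -0.14, against 0.04 over all genes.

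Adamts15 was the member with the higher level. It had 2433, 1523 and 2073 normalized counts in EPN Sox9-GOF, against 1238, 914 and 742 in EPN control, without overlap (log2 fold change 1.11, SE 0.25, limma adjusted p = 0.152). Timp4, the TIMP best known from brain and heart, had 66.3, 100.3 and 74.9 in EPN Sox9-GOF and 308, 204 and 250.5 in EPN control (log2 fold change -1.60, SE 0.26, limma adjusted p = 0.133). All 3 EPN Sox9-GOF libraries lay below all 3 controls.
The GPI-anchored Mmp17 had 114, 58.4 and 32.6 normalized counts in EPN Sox9-GOF, against 219.7, 221 and 366 in EPN control (log2 fold change -2.05, SE 0.47, limma adjusted p = 0.152). Mmp24, a transmembrane MMP best known from neurons, had 15.9, 14.8 and 10.6, against 37.0, 56.4 and 107 in EPN control (log2 fold change -2.04, SE 0.48, limma adjusted p = 0.160). Neither gene's groups overlapped. Mmp24 shares 13.6% of its exon bases with a gene on the opposite strand.
Timp2, which binds Mmp14 in the complex that activates pro-Mmp2, had 859, 1713 and 1111 normalized counts in EPN Sox9-GOF and 2503, 2051 and 2253 in EPN control (log2 fold change -0.89, SE 0.25, limma adjusted p = 0.182). The other 3 at an unadjusted p under 0.05 were Adamts6, Adamts20 and Mmp19, with log2 fold changes of -1.18, -1.20 and -0.72. Mmp19 shares 22.3% of its exon bases with Tmem198b on the opposite strand, so its counts are uncertain. Adamts2 and Mmp14, both high in this model, showed little difference: Adamts2 had 1641, 2822 and 2566 in EPN Sox9-GOF and 2738, 3253 and 1560.4 in EPN control, and Mmp14 had 3048, 2706 and 2474, against 3668, 3362 and 2214.
Several marker lists separated these groups too. Neuron markers, 8 genes all with reads, summed to 148, 103 and 50.9 TPM in EPN Sox9-GOF, against 270, 343 and 649 TPM in EPN control. Astrocyte markers, also 8 genes all with reads, summed to 755, 1715 and 427 TPM, against 2907, 2410 and 2466 TPM. Oligodendrocyte precursor markers (278 to 416 TPM against 472 to 542 TPM), pericyte markers (220.1 to 249 TPM against 325 to 429 TPM) and neutrophil markers (87.8 to 189 TPM against 221 to 374 TPM) were also lower in all 3 EPN Sox9-GOF libraries. Their part in the lower Timp4, Mmp17, Mmp24 and Timp2 levels was not tested.

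In HGG Sox9-GOF against HGG control, 0 of 36 members were called (limma), where 0.0% of 15092 genes were, also 0 members by edgeR. DESeq2 called 6 of 35 (Adamts7, Adamts10, Adamts15, Mmp14, Mmp16 and Mmp23), 17.1% against 15% of 15024 genes with an adjusted p in that tool. At an unadjusted p under 0.05 there were 6 members, 3 higher and 3 lower, 16.7% against 22.7% of all genes. The median over the members was -0.04, against 0.03 over all genes.

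Adamts10, a fibrillin-binding ADAMTS that is mutated in human Weill-Marchesani syndrome, had 99.1, 199 and 125 normalized counts in HGG Sox9-GOF, against 473, 502 and 307 in HGG control (log2 fold change -1.60, SE 0.34, limma adjusted p = 0.0719). Mmp23 had 3.59, 3.67 and 5.26, against 23, 24.6 and 14.9 in HGG control (log2 fold change -2.06, SE 0.53, limma adjusted p = 0.0941). Mmp14 had 719, 447 and 541, against 1168, 1712 and 854 (log2 fold change -1.07, SE 0.32, limma adjusted p = 0.120). In all 3 genes the HGG Sox9-GOF libraries lay below the controls without overlap.
On the higher side, Mmp16, another transmembrane MMP, had 537, 901 and 310.4 normalized counts in HGG Sox9-GOF, against 206, 283 and 132 in HGG control (log2 fold change 1.45, SE 0.47, limma adjusted p = 0.141). Adamts15 had 51.7, 70.4 and 69.3, against 24.6, 28.7 and 38.3 (log2 fold change 1.07, SE 0.35, limma adjusted p = 0.144). Both separated the groups. Adamts13, the protease of von Willebrand factor, was low, with 29.4, 29.4 and 8.77 against 2.38, 2.05 and 9.23, and its groups overlapped (log2 fold change 2.18, SE 0.80, limma adjusted p = 0.176). Adamts7 had the largest log2 fold change of all 36, -2.29, with an SE of 1.05 (limma adjusted p = 0.259).

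In the libraries labelled Sox9-LOF against HGG control, 0 of 35 members were called (limma), where 0.0% of 14861 genes were, also 0 members by edgeR. DESeq2 called 2 of 34 (Mmp2 and Mmp14), 5.88% against 9.06% of 14778 genes with an adjusted p in that tool. At an unadjusted p under 0.05 there were 5, 2 higher and 3 lower, 14.3% against 17.3% of all genes. Over all genes 1355 were higher and 1209 lower at that threshold. The median over the members was -0.27, against 0.01 over all genes. The 3 HGG control libraries are the same as in the comparison with HGG Sox9-GOF.

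The gelatinase Mmp2 had 77.2, 115 and 126 normalized counts in the libraries labelled Sox9-LOF, against 427, 291 and 215 in HGG control (log2 fold change -1.53, SE 0.34, limma adjusted p = 0.145). Its activator Mmp14 had 535, 615 and 501, against 1168, 1712 and 854 (log2 fold change -1.13, SE 0.29, limma adjusted p = 0.168). Adamts10 had 259.5, 186 and 253, against 473, 502 and 307 (log2 fold change -0.86, SE 0.27, limma adjusted p = 0.204). None of these 3 overlapped between the groups, which choosing genes by a small p favours.
Timp4 had 718, 1085 and 788 in the libraries labelled Sox9-LOF, against 91.3, 621 and 198 in HGG control (log2 fold change 1.91, SE 0.67, limma adjusted p = 0.233). Mmp16 had 364, 341 and 356, against 206, 283 and 132 (log2 fold change 0.83, SE 0.31, limma adjusted p = 0.252). Both groups were apart in each gene. Timp1 had a log2 fold change of 1.82 with a wide spread, from 560.0, 1159 and 117 against 276, 45.1 and 134 (SE 0.98, limma adjusted p = 0.390). Astrocyte markers summed to 5246, 5126 and 4656 TPM in the libraries labelled Sox9-LOF, against 671, 2382 and 3157 TPM in HGG control, and their part in these values was not tested.

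**Figure D4:**
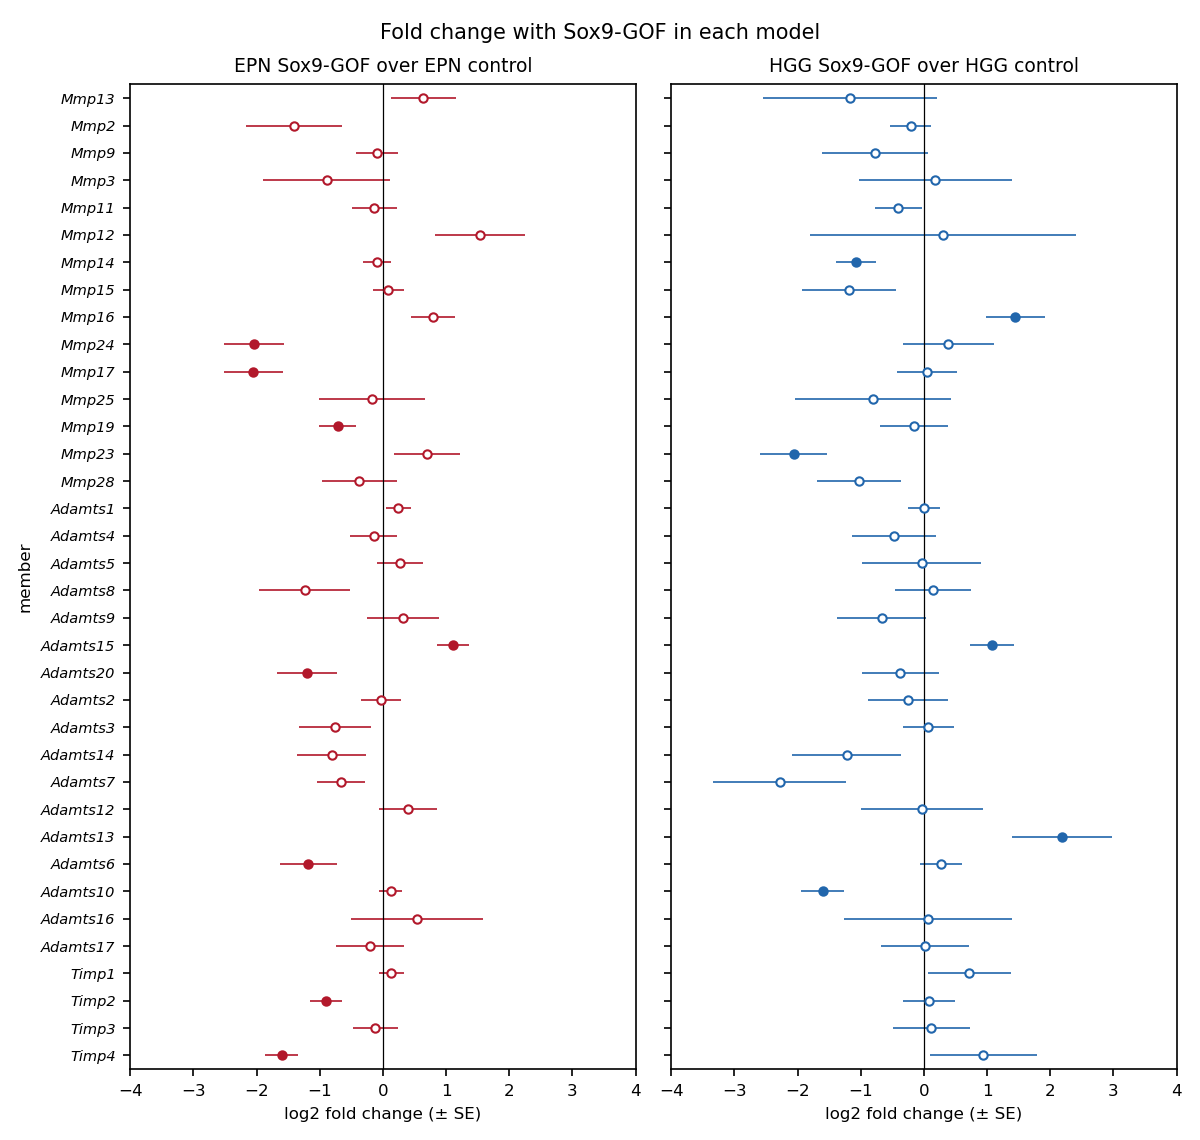
Log2 fold change (point) ± SE (line) of the testable members in EPN Sox9-GOF over EPN control (left) and HGG Sox9-GOF over HGG control (right), with filled points at an unadjusted p under 0.05. Adamts15 lies near 1.1 in both panels, while Mmp23 and Adamts10 are at or above 0 on the left and below -1.5 on the right.

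The Sox9-GOF effect was then compared between the models as the EPN log2 fold change minus the HGG log2 fold change. Of 35 members, 2 were called (limma, adjusted over 15088 genes), which is 5.71% against 6.1% of all genes, and 7 had an unadjusted p under 0.05, 20% against 27.2%. Both called members had a positive difference. These shares were below those of all genes.
For Adamts10 the difference was 1.70 (SE 0.39, limma adjusted p = 0.0350), from a log2 fold change of 0.12 in EPN and -1.60 in HGG. In EPN its libraries had 383, 491 and 379 normalized counts with Sox9-GOF and 433, 412 and 341 in controls, which overlapped. For Mmp23 the difference was 2.72 (SE 0.69, limma adjusted p = 0.0447), from 0.70 in EPN, with 780.1, 779.6 and 1636 normalized counts in EPN Sox9-GOF and 326, 1347 and 579 in EPN control, and -2.06 in HGG. The HGG side of Mmp23 rests on few reads, 16 in the HGG Sox9-GOF libraries together and 62 in the HGG controls together. Neither call held with a correction for GC content and length (limma adjusted p = 0.0953 for Adamts10 and 0.151 for Mmp23). With a replicate block Adamts10 was called and Mmp23 was not (limma adjusted p = 0.0318 and 0.0552). With 1 library left out the count of called members ranged from 0 to 4. It was 0 without HGG control 1, HGG Sox9-GOF 1, HGG Sox9-GOF 3, any of the 3 EPN controls, EPN Sox9-GOF 2 or EPN Sox9-GOF 3. Over all genes, 54 of 14983 were called with the GC and length correction. With 1 library left out, 44 of 15101 to 2135 of 15047 genes were called.
The other 5 members at an unadjusted p under 0.05 were not called. Mmp24, Timp4, Mmp17 and Adamts6 had differences of -2.45, -2.57, -2.12 and -1.47, and Mmp14 had 0.96. Adamts15 had nearly equal log2 fold changes in both models, 1.11 and 1.07, and the difference was 0.02 (SE 0.38, limma adjusted p = 0.985), although its level was 30.4-fold higher in EPN control than in HGG control.

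**Figure D5:**
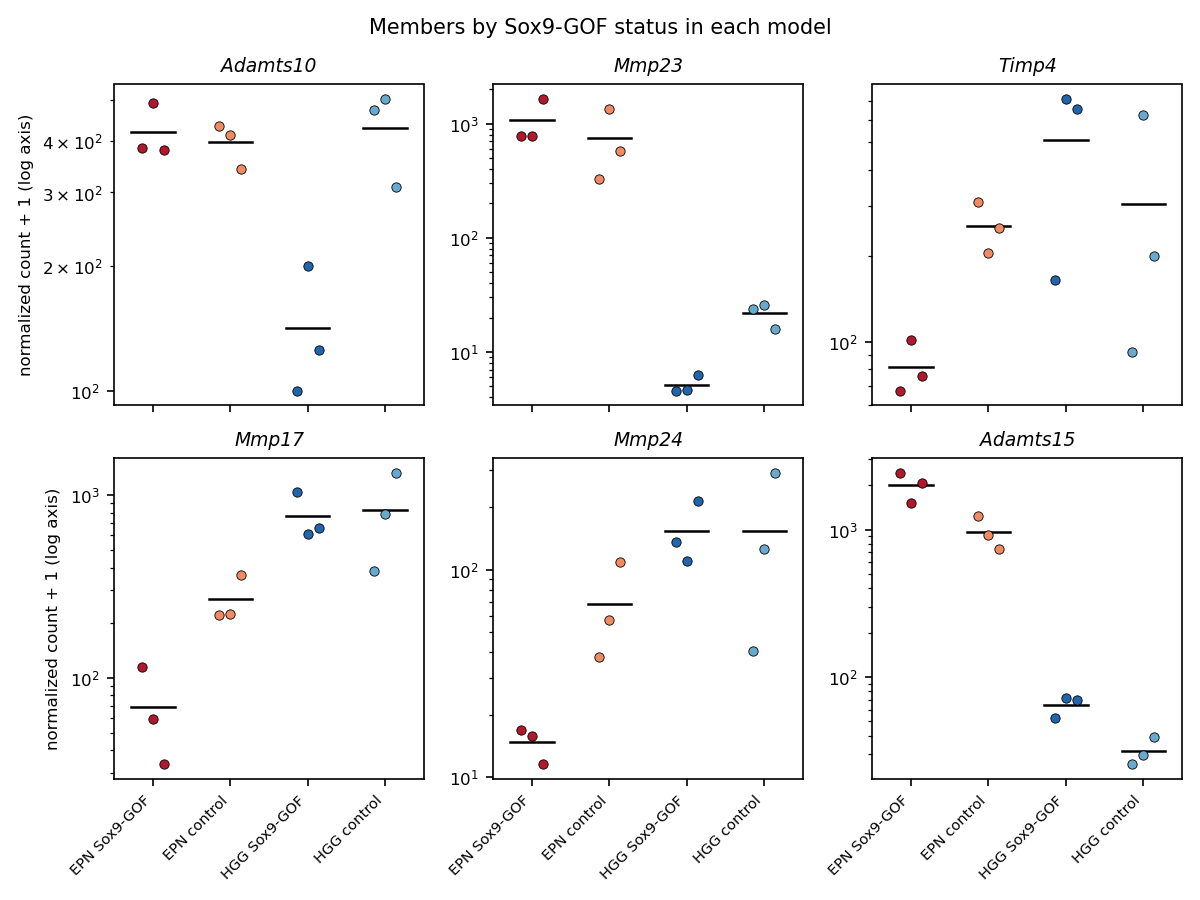
Normalized count + 1 (log axis) of 6 members in EPN Sox9-GOF, EPN control, HGG Sox9-GOF and HGG control libraries, with bars at the arithmetic group means. Adamts10 and Mmp23 were lower in HGG Sox9-GOF than in HGG control without overlap and overlapped in EPN, Timp4, Mmp17 and Mmp24 were lower in EPN Sox9-GOF than in EPN control, and Adamts15 was higher with Sox9-GOF in both.

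A list of 43 further genes of the system, of which 41 could be tested, covers activation, the plasminogen system, ADAM sheddases, hyalectans, ADAMTS-like proteins and AP-1 and ETS factors. In EPN control against HGG control, 10 of the 41 were called, 8 higher and 2 lower, which is 24.4% of them against 15.3% of all genes. Of the 4 hyalectans on the list only 1, Acan, was called. Over the 4 the median log2 fold change was 0.59, with 3 positive and 1 negative. Acan, the hyalectan aggrecan that Adamts15 and Adamts1 cleave, was higher in EPN control (log2 fold change 5.70, SE 0.75, limma adjusted p = 0.00765). So were the sheddases Adam10 (1.66, SE 0.17, limma adjusted p = 0.00471) and Adam17 (1.25, SE 0.17, limma adjusted p = 0.00769), and Papln, an ADAMTS-like matrix glycoprotein (3.51, SE 0.32, limma adjusted p = 0.00371). The other 4 higher ones, named after their values were seen, were the propeptide-cleaving convertases Furin and Pcsk6, the endocytic receptor Lrp1 and the ETS factor Etv5. The 2 lower ones were the AP-1 factors Jund and Jun.
In the 3 comparisons within a model, 0 of these 41 genes were called by limma or edgeR. DESeq2 called 3 of 41 in EPN Sox9-GOF (7.32% against 5.78% of all genes), 2 of 39 in the LOF-labelled libraries (5.13% against 9.06%) and 5 of 39 in HGG Sox9-GOF (12.8% against 15%). At an unadjusted limma p under 0.05 there were 7 in EPN Sox9-GOF (17.1% against 15.1% of all genes), 4 in the LOF-labelled libraries (9.76% against 17.3%) and 8 in HGG Sox9-GOF (19.5% against 22.7%). Bsg, which encodes an inducer of MMPs, had a log2 fold change of -0.79 (SE 0.27, limma adjusted p = 0.229) in the libraries labelled Sox9-LOF against HGG control. Pcsk5, a convertase, had 1.38 (SE 0.34, limma adjusted p = 0.160) in EPN Sox9-GOF against EPN control. Jund had -1.81 (SE 0.21, limma adjusted p = 0.0590) and Jun -1.07 (SE 0.32, limma adjusted p = 0.120) in HGG Sox9-GOF against HGG control, and Jund had 0.72 (SE 0.19, limma adjusted p = 0.167) in EPN Sox9-GOF against EPN control. The difference between the models in the Sox9-GOF effect was called for 1 of the 41 (2.44% against 6.1% of all genes), Jund, at 2.50 (SE 0.28, limma adjusted p = 0.00794), and Adamtsl3, an ADAMTS-like protein, had -2.03 (SE 0.54, limma adjusted p = 0.0515). Mmp3 and Mmp13, the testable cluster genes with an AP-1 motif, had differences of -1.09 (SE 1.70, limma adjusted p = 0.726) and 1.78 (SE 1.52, limma adjusted p = 0.485), with SEs near or above the differences.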

How the data were processed

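Per the labels' protocols, frozen tumour tissue gave total RNA, and libraries were made with a stranded mRNA kit. The submitters' processing notes name mm10, DESeq2 1.30.1 and STAR 2.5.0a. For the counting tool and its strand setting, nothing is given in the sources used here. The authors deposited 3 tables of 6 libraries whose values are a signal per gene, read counts divided by a size factor, as the values show: 100% of values are whole multiples of 1 read within 0.001 read. The HGG control reads are identical in both HGG tables. The design had named normalized counts, and the unit matched it.

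Tests used limma 3.58.1 (trended variance, R 4.3.3) on log2(normalized count + 1) for genes with a mean of at least 10, two-sided, Benjamini-Hochberg adjusted over all genes tested, threshold 0.05. The pseudocount understates changes of low genes. The 3 comparisons within a model used the 6 libraries of their table. The comparison of controls, the difference between models and all printed levels used the whole reads, put on 1 scale for all 15 libraries by median-of-ratios factors, and members' fold changes on the 2 scales differed by at most 0.07 (log2). A fold is 2 to the power of the log2 fold change. TPM used exon lengths of GENCODE vM21 (GRCm38). Alternatives were TMM scaling, other pseudocounts and filters, edgeR 4.0.16, DESeq2 1.42.0, more libraries in the fit, each library left out, a replicate block, and a GC and length correction. The members and lists were chosen with earlier results of these data known. Named genes were called members, the 4 smallest p per comparison, the Timp genes, Mmp2, Mmp9 and Mmp14, the most abundant of each role, changes of at least 2 on the log2 scale without overlap, and, of the further list, called genes (up to 4 per comparison) and the 2 smallest p per comparison. Naming genes by a small p or by lack of overlap favours groups that do not overlap. The share of all genes without overlap was not computed. The script was tested on simulated data.

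Replicate numbers run through all groups. Deviations of same-numbered libraries correlated at 0.18, 0.45 and 0.22 between HGG Sox9-GOF and HGG control. HGG Sox9-GOF 1 and 3 both correlated best with HGG control 3, and HGG Sox9-GOF 2 with HGG control 2. Whether numbers pair these libraries is thus not settled by the data, and the labels do not say. With the block 0 of 15092 genes were called there, as without it, so there was no call to lose. Members at an unadjusted p under 0.05 went from 6 to 8.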

Additional observations from a re-analysis of the deposited data

Results flagged for a closer look

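For 4 genes the Sox9-GOF effect differed between the models by the contrast itself (EPN log2 fold change minus HGG log2 fold change, limma adjusted p under 0.05). The difference was 1.70 for Adamts10, with log2 fold changes of 0.12 in EPN and -1.60 in HGG. It was 2.72 for Mmp23, with 0.70 in EPN and -2.06 in HGG. Reads of Mmp23 were few in HGG, 16 together with Sox9-GOF and 62 together in controls. Jund, an AP-1 factor, had a difference of 2.50, from 0.72 in EPN and -1.81 in HGG. Sox9 itself had a difference of -1.39, from 1.04 in EPN and 2.40 in HGG, with a mean of 1091 normalized counts in EPN control and 271 in HGG control. Over 23 alternatives, the call was lost in 11 for Adamts10 (limma adjusted p up to 0.0986), 18 for Mmp23, 1 for Jund and 6 for Sox9 (up to 0.0713).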

How the results depend on the processing

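Members called in EPN control against HGG control numbered 9, 15 by DESeq2, 14 with all 15 libraries in the fit and 3 to 13 with 1 library left out. Over all genes, 2317 of 15105 were called in the main fit, 4393 of 15105 by DESeq2 and 4176 of 15109 with all 15 libraries. With 1 library left out, calls over all genes ranged from 368 of 15124 to 3633 of 15030, so the member counts moved with those of all genes. For the difference of the Sox9-GOF effects between models the count of 2 became 1 with a pseudocount of 8, no filter, edgeR or all 15 libraries, 0 with the GC and length correction, and 0 to 4 with 1 library left out. Over all genes, 920 were called in the main fit and 963, 707, 728 and 1514 in the fits with 1 member, in the order named. The GC and length correction left 54, and fits with 1 library left out gave 44 to 2135. By DESeq2 the count of members for this difference was 3, with Adamts6 added, and 2468 of 15088 genes were called. The counts of 0 became 2 by DESeq2 and 1 with all 15 libraries for the libraries labelled Sox9-LOF, 6 by DESeq2, 4 with all 15 libraries and 2 with the 9 HGG libraries for HGG Sox9-GOF, and 4 by DESeq2 for EPN Sox9-GOF, and stayed at 0 with each library left out. Over all genes, DESeq2 called 1339, 2260 and 842 in these comparisons, in that order. The fit of all 15 libraries called 1086, 2234 and 130 of 15109 genes. The 9 HGG libraries gave 1327 of 14970 genes for HGG Sox9-GOF. The causes were not tested. With the replicate block, 6 members were called between the controls and 1 between the Sox9-GOF effects, or 6 and 0 with the GC and length correction added, and the 1 was Adamts10 (limma adjusted p = 0.0318), not Mmp23 (0.0552). Over all genes the block gave 1142 and 844 calls, or 1057 and 3 with the correction added. Same-numbered libraries did not all correlate between the controls or between the EPN groups, which neither shows nor excludes pairing there. Those of HGG Sox9-GOF and HGG control, which also enter the difference, correlated, but HGG Sox9-GOF 1 did so best with HGG control 3. Fold changes were recomputed 1226 times for chosen pairs of gene and comparison, most of them picked for a small p or a large change in the main fit. Of these, 0 changed sign, which that choice favours, 71 lost a call and 69 gained 1. Several printed changes of small size were not among the pairs. The 3 libraries per group limit each test, and members under 10 normalized counts were not tested.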
